A study of Mus musculus with 4 samples.

Results

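Gene expression 1 h after low-intensity pulsed ultrasound (LIPUS) was compared with untreated control in ST2 cells. ST2 is an established, fibroblast-like stromal line from the bone marrow of BALB/c mice, and all arrays hold this 1 line. The control array held cells cultured at 37 °C. The LIPUS 1 h array held cells that received 25 mW/cm2 for 20 min and were returned to culture at 37 °C for 1 h. Medium with 10% serum and 5% CO2 were common to both. The labels do not say whether control cells were handled like the treated ones without ultrasound, or when they were harvested. Both arrays are from a set of 4 Affymetrix mouse whole-genome arrays, 1 per group, of which the others were taken at 0.5 h and 3 h. Every gene with a probe set of 1 gene symbol was represented by its brightest probe set, and 11497 of 18193 such genes had at least 1 of the 2 arrays above the median of all values, a log2 signal of 5.23. With 1 array per group there was no replicate check and no test, so genes are described by size alone. A ratio below is the log2 signal at 1 h minus that of the control, with signals under the median raised to it. Genes at least 1.5-fold apart, 0.58 on the log2 scale, are said to have risen or fallen, and those at least 2-fold apart are named as such.

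Cells meet sudden stress or a mechanical stimulus with fast programmes that need no new protein. Heat shock factors release chaperone genes within minutes when proteins unfold. Kinase cascades do the same for the immediate-early genes, most of which encode short-lived transcription factors and regulators of signalling. Later layers follow, including secreted factors, feedback inhibitors and factors that destroy the early messages. LIPUS is given clinically as a mild mechanical signal to speed the repair of broken bone, and marrow stromal cells can give rise to bone-forming cells.

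The 2 arrays had similar signal distributions, with medians of 5.23 and 5.21, and 22578 and 22453 probe sets above the floor. The only error that could be measured was technical. For 2 probe sets of one gene, the SD of the difference between their ratios was divided by the square root of 2. The result was 0.158 over 5292 genes, 0.172 in the dimmer and 0.143 in the brighter ones. Both probe sets share the same 2 arrays, so array differences common to them are not in this value. Spread between cultures was not measured. Control probe sets outside the genes counted here also differed between the arrays. The bacterial poly-A transcripts added as controls were higher at 1 h by all 24 of their probe sets, with a median ratio of 0.29, and the 3 probe sets of 18S ribosomal RNA were higher by 1.91 in the median. The signal at the 5' end of a transcript relative to its 3' end, which is lower when RNA or its copies are shorter, differed from the control array by −0.16 in Gapdh, −0.13 in Actb, −0.23 in Pcx and −0.30 in Tfrc. The part of these differences in the ratios below was not tested.

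The response at 1 h was narrow and mostly upward. Of the 11497 genes, 22 were in the class of rises of at least 2-fold (0.191%) and 0 in that of falls of at least 2-fold (0%). Another 87 rose 1.5- to 2-fold (0.757%), which makes 109 rises in all (0.948%), and 38 fell 1.5- to 2-fold (0.331%). At 0.5 h the same counts were 16, 0, 27 and 12, and at 3 h they were 8, 0, 32 and 21, against the same control array. The 1 h array therefore held the most genes in each of the 3 filled classes. In all, 11350 genes (98.7%) lay within 1.5-fold of the control, with a median ratio of 0.02 and an SD of 0.22 over all genes. Ratios were above 0 for 6284 genes (54.7%) and below 0 for 5180, the background for the counts by side of 0 given below. Changed genes were found at every signal level. The dimmest 3833 genes held 7 of the 2-fold genes, 31 of the smaller rises and 15 of the falls, and the brightest 3832 held 9, 16 and 11.

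**Figure D1:**
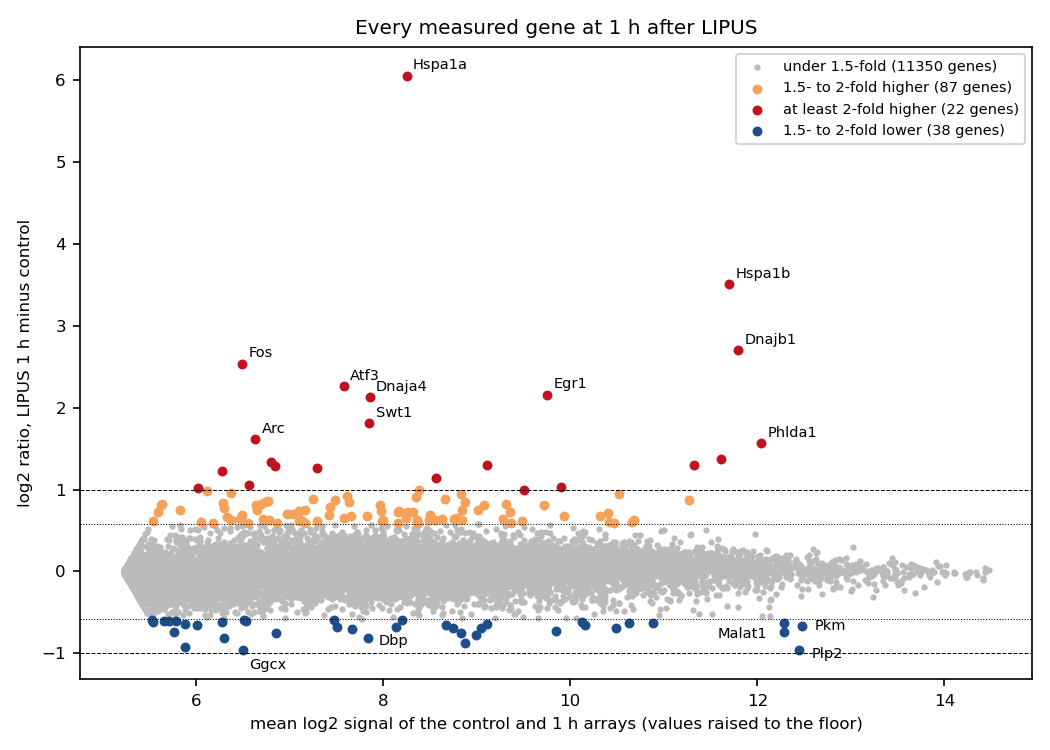
Each dot is a gene, placed by its mean log2 signal on the control and 1 h arrays (x axis) and its log2 ratio of LIPUS 1 h minus control (y axis), with dashed lines at 2-fold and dotted lines at 1.5-fold. The 22 genes at least 2-fold higher reach from 1.00 to 6.05, whereas the lowest ratio is −0.96, for Ggcx.

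The counts depended on where the floor was set and on the reference. A higher floor also leaves fewer genes measured. With the floor at the 75th percentile of all values, 6927 genes were measured. Of these, 13 rose at least 2-fold, 46 rose 1.5- to 2-fold and 19 fell. Against the mean of the other 3 arrays, of which 2 are also LIPUS arrays, 11462 genes were measured. Of those, 9 rose at least 2-fold, 30 rose 1.5- to 2-fold and 4 fell. With the floor at the 25th percentile, or with none, 62 of 15407 or 81 of 18193 genes fell 1.5- to 2-fold. After quantile normalization the split at 1.5- to 2-fold was 71 rises and 49 falls. The limits of the classes cut through a continuous range. Zfand2a, the last gene inside the 2-fold class, was 2.00-fold higher, and Snai1, the first outside it, was 1.99-fold higher. At the 1.5-fold limit, Rassf5 had a ratio of 0.59 and Tent4b one of 0.58, and on the lower side Zbtb8a was at −0.59 and Lefty1 at −0.58.

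Inducible chaperone genes formed the top of the response. Of 23 measured genes known as targets of the heat shock factor HSF1, 7 rose at least 2-fold, 2 rose 1.5- to 2-fold and 14 did not pass 1.5-fold, and 20 of the 23 had ratios above 0. The list median of 0.45 was the highest of 53 lists, against 0.02 over all measured genes. Hspa1a, an inducible member of the 70-kDa chaperone family, gave a signal of 4.46 in the control, under the floor, and of 10.93, 11.28 and 8.66 at 0.5, 1 and 3 h. It was at least 66.3-fold higher at 1 h. Its neighbour Hspa1b, which encodes nearly the same protein, went from 9.95 in the control to 13.44, 13.46 and 12.77. Probe sets of such close copies can share signal, so the split between Hspa1a and Hspa1b is uncertain. The 2 other probe sets of Hspa1b had ratios of 3.59 and 3.78 at 1 h.

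Partners of these chaperones rose with them. Dnajb1, a J-domain co-chaperone that hands substrates to 70-kDa chaperones, had signals of 10.44 in the control and 12.90, 13.14 and 10.71 at the LIPUS times, and its other probe set had a ratio of 1.71 at 1 h. Dnaja4, another J-domain protein, went from 6.79 to 8.56, 8.92 and 9.18, and its 2 other probe sets had ratios of 3.03 and 1.67. Dnajb4, of the same family, was at 10.84 in the control and at 11.44, 11.71 and 11.16 after LIPUS, with a ratio of 0.67 by its other probe set. For Dnajb1 and Dnajb4 the 1 h array was the highest of the 4, and for Dnaja4 the 3 h array was. The rise did not extend through the family. Of 33 measured DNAJ genes, 2 rose at least 2-fold, 1 rose 1.5- to 2-fold and 30 did not pass 1.5-fold, with a median of 0.07.

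Nucleotide exchange factors and small chaperones gave a graded picture. Hsph1, which reloads 70-kDa chaperones with nucleotide, had signals of 10.93, 11.98, 12.30 and 12.70 in the control and at 0.5, 1 and 3 h. Bag3, which couples the same chaperones to autophagy, was at 10.67, 11.80, 11.98 and 11.21. Zfand2a, a zinc finger protein linked to the proteasome under stress, was at 9.01, 9.61, 10.01 and 9.07. All 3 had their control signal below each LIPUS signal, by little at 3 h for Zfand2a. Cryab, a small heat shock protein of the crystallin family, rose 1.5- to 2-fold, from 10.05 to 10.82, 11.00 and 11.04, with a ratio of 0.50 by its other probe set. List members short of 1.5-fold included Hspb1 at 0.48, Dnaja1 at 0.46, Chordc1 at 0.45 and Hspb8 at 0.39. Here and below, members that did not pass 1.5-fold, other than the highest and lowest of a list, were chosen after their values were seen. The constitutive chaperone genes Hspa8 and Hsp90aa1 stood at 13.68 and 13.36 in the control, with ratios of 0.06 and 0.10, and the lowest member was Ahsa1, an activator of 90-kDa chaperones, at −0.13.

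Chaperones of other compartments had ratios near 0. Of 14 measured subunits of the cytosolic chaperonin TRiC and mitochondrial chaperones, none passed 1.5-fold, the median was 0.04, and the extremes were Trap1 at 0.17 and Cct3 at −0.06. Of 21 genes of the unfolded protein response of the endoplasmic reticulum, none passed 1.5-fold either, with a median of 0.03, Herpud1 highest at 0.48 and Manf lowest at −0.27. Hspa5, the main chaperone of that compartment, was at 0.28. Among 34 proteasome subunits none passed 1.5-fold, with a median of 0.06.

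Heat shock factors bind inverted repeats of a short core unit, so promoters were searched for a pair of them, GAANNTTC or TTCNNGAA. Each pair reads the same on both strands, and a longer inverted triple was searched as well. The promoters were those of RefSeq on GRCm38.p6, 250 bases before to 50 bases after a start. Of the 22, 87 and 38 changed genes, 15, 66 and 34 had a promoter in that table. The pair was in 7 of 19 promoters of the 2-fold genes (36.8%), in 10 of 79 promoters of the genes up 1.5- to 2-fold (12.7%) and in 3 of 49 promoters of the genes that fell (6.12%), against 11.6% of the promoters of measured genes and 15.1% of all promoters. Promoters of the same gene can overlap and are not independent. Counted by gene, the pair was in 6 of 15, 10 of 66 and 1 of 34, against 1284 of 9299 measured genes. All 3 matches among the falls were promoters of Slc29a1, and the matched promoters of Hsph1 share the same stretch. Of the heat shock genes past 1.5-fold with a promoter, 7 of 8 held the pair (Bag3, Dnaja4, Dnajb4, Hspa1a, Hspa1b, Hsph1 and Zfand2a, without Dnajb1), as did 7 of 12 of those that did not pass 1.5-fold. A match is a description of letters and no measured binding site. Stretches from 6 of these genes are shown, since they carry the pair upstream of the start in chaperone and partner genes that rose. They are given 5' to 3' on the gene's strand, with the pair in capitals.
Hspa1a: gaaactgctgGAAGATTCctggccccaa
Hspa1b: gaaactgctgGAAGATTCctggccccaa
Dnaja4: gaacctccgcGAACGTTCtgggcctatg
Dnaja4: cctcctggcgGAACCTTCcgccggcgcc
Hsph1: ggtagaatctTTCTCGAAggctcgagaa
Zfand2a: tgcctgactgTTCTAGAAaataggcggg
Dnajb4: tcgttcgctgTTCTAGAAagtaca
The Hspa1a stretch lies at chr17:34972243-34972270 and the Hspa1b stretch at chr17:34959325-34959352, both on the minus strand, with the pair 97 to 104 bases upstream of each start. The 300-base promoters of these 2 genes were identical at 296 positions (98.7%). The stretches of Dnaja4 lie at chr9:54699459-54699486 and chr9:54699497-54699524 on the plus strand, with pairs 83 to 90 and 45 to 52 bases upstream of the start. On the minus strand, the Hsph1 stretch lies at chr5:149636352-149636379, that of Zfand2a at chr5:139484670-139484697 and that of Dnajb4 at chr3:152193846-152193869. The pair in Dnajb4 begins 14 bases upstream of its start and that in Zfand2a 196 bases upstream. Zfand2a and Dnajb4 hold the same 8 letters, as do Hspa1a and Hspa1b.

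Other motifs of early response genes were rare in these windows. The CArG box of serum response factor was in 0 of 19 promoters of the 2-fold genes and 1 of 79 of the smaller rises, against 1.30% of measured genes. The full cyclic AMP response element, TGACGTCA, was in 1 of 19 and 1 of 79, against 2.99%. The AP-1 site, TGAGTCA or TGACTCA, was in 1 of 19 and 0 of 79, against 3.70%. No match means only that these letters are not in the window.

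**Figure D2:**
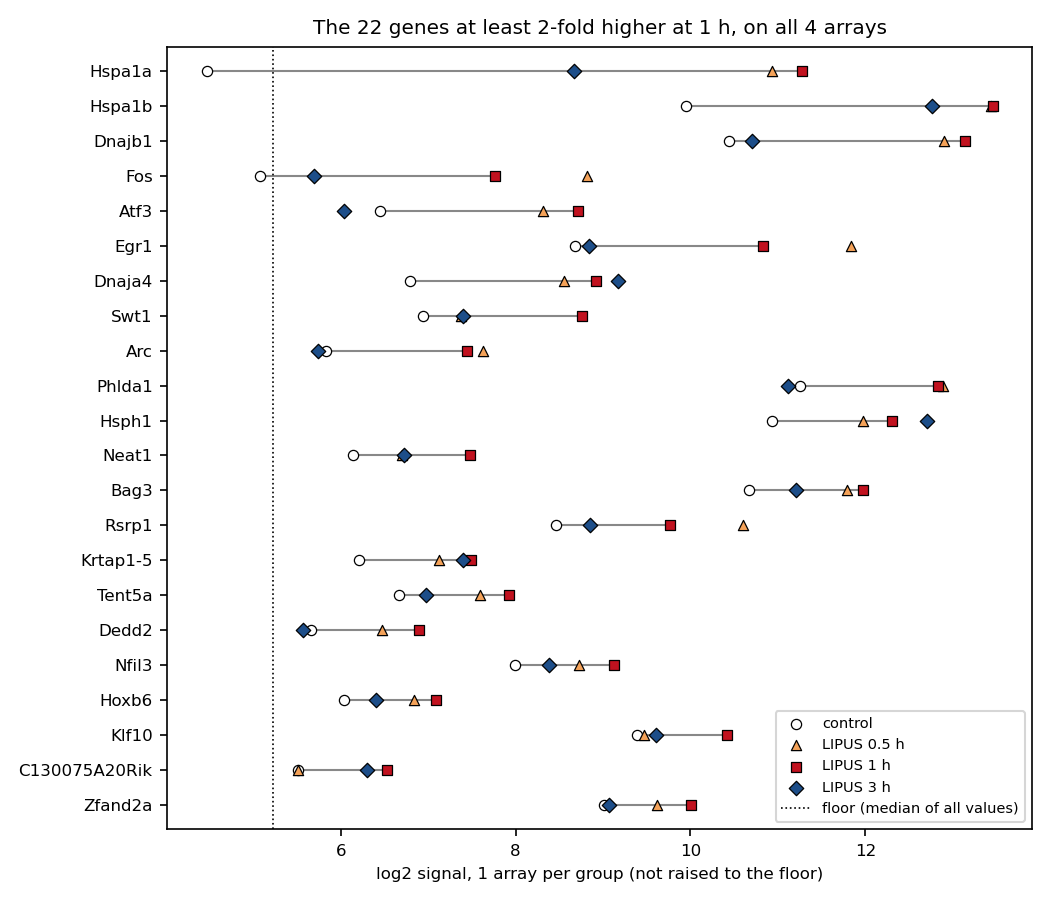
Log2 signal on each of the 4 arrays (x axis) for the 22 genes at least 2-fold higher at 1 h (rows, by falling ratio), with a line joining control and 1 h and a dotted line at the floor of 5.23. The 1 h array is the highest of the 4 for 15 genes, the 0.5 h array for 5 and the 3 h array for 2.

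The AP-1 family, dimeric transcription factors assembled from FOS, JUN and related proteins, moved in part. Of 10 measured members, 2 rose at least 2-fold, 2 rose 1.5- to 2-fold and 6 did not pass 1.5-fold, with a median of 0.19. Fos gave a signal of 5.08 in the control, under the floor, and of 8.82, 7.76 and 5.70 at 0.5, 1 and 3 h, so that it was at least 5.80-fold higher at 1 h. Atf3, a stress-induced member that dimerises with JUN proteins, was at 6.45 in the control and at 8.31, 8.71 and 6.03 after LIPUS. Both were lower at 3 h than at 1 h, and Atf3 was then below its control signal. Junb, a JUN protein that also restrains the others, went from 8.22 to 8.34, 9.10 and 8.32, and so stood out at 1 h. Jun went from 10.36 to 11.31, 10.99 and 10.35, with a larger ratio of 0.98 at 1 h by its other probe set. The lowest members were Fosl1 at −0.29 and Jund at −0.28, and the other probe set of Fosl1 was past 1.5-fold downward, at −0.71.

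Among 30 measured genes of the other immediate-early group, 3 rose at least 2-fold, 2 rose 1.5- to 2-fold and 25 did not pass 1.5-fold, with a median of 0.06. Egr1, a zinc finger factor induced by growth factors and stretch, had signals of 8.68, 11.83, 10.83 and 8.84 in the control and at 0.5, 1 and 3 h. Arc, known as an activity-induced gene of neurons, was at 5.83, 7.63, 7.44 and 5.74. Klf10, a factor first described as a TGF-beta-inducible gene, was at 9.39, 9.47, 10.42 and 9.60. Egr1 and Arc were therefore highest at 0.5 h and Klf10 at 1 h. Klf10 was close to the limit of the 2-fold class. Its relatives Klf6, Klf11 and Klf4 had ratios of 0.51, 0.30 and 0.29, short of 1.5-fold. Lower in the list were Egr3 at −0.31, Egr4 at −0.37 and Nab2, a corepressor of EGR factors, at −0.45.

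Regulators of signalling gave few changes. Phlda1, a pleckstrin homology domain protein induced by growth factor signalling, had signals of 11.26 in the control and 12.89, 12.83 and 11.11 after LIPUS. It was the only one of 19 measured MAP kinase feedback genes past 1.5-fold. Errfi1, an inhibitor of the EGF receptor, was at 0.58, Dusp1, a phosphatase of MAP kinases, at 0.52 and Spry2 at 0.49, while Dusp5 was lowest at −0.36. The list median was 0.01. Of 14 cyclic AMP and CREB target genes, Fos alone passed 1.5-fold, and Per1 was lowest at −0.45.

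Stress regulators outside the chaperone network were represented by single genes. Of 19 integrated stress response genes, Atf3 rose at least 2-fold and Chac1, which degrades glutathione, rose 1.5- to 2-fold, from 9.31 in the control to 9.69, 10.12 and 9.22. The remaining 17 did not pass 1.5-fold, with Atf4, the central factor of that response, at −0.17, Ddit3 at 0.15 and Trib3 lowest at −0.40. Dedd2, a death effector domain protein, was the 1 of 21 apoptosis regulators past 1.5-fold, with signals of 5.66, 6.47, 6.89 and 5.57. It is a dim gene, close to the floor in the control. Bcl2l11, which encodes the death inducer BIM, was at 0.51.

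Of 18 measured p53 target genes, 15 had ratios above 0, and the median was 0.20. Trp53inp1, a p53-inducible nuclear protein, rose from 7.56 to 7.65, 8.37 and 8.02. The others did not pass 1.5-fold, among them Sesn1 at 0.48, Mdm2, the ligase that degrades p53, at 0.46, and Cdkn1a, the cell cycle inhibitor p21, at 0.07. Aen was lowest at −0.41. Cdkn2a, a tumour suppressor gene outside that list, rose from 5.91 to 6.21, 6.68 and 6.39. Of 16 measured NRF2 targets and metallothioneins, Hmox1, which breaks down haem, rose from 9.18 to 9.77, 9.80 and 9.49, and 15 did not pass 1.5-fold, with Mt1 at 0.45 and Sqstm1 lowest at −0.43.

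Several genes that act on messenger RNA rose. Swt1, a nuclear endonuclease that surveys messenger RNA, had signals of 6.94 in the control and 7.38, 8.76 and 7.40 at the LIPUS times. Its other probe set gave the same ratio of 1.82, from 6.54 to 8.36. Zfp36l1, which binds AU-rich elements and promotes decay of early messages, rose from 8.36 to 9.19, 9.31 and 8.78, with a ratio of 0.76 by its other probe set. Btg2, an antiproliferative protein that recruits deadenylases, rose from 6.80 to 7.47, 7.69 and 6.75, with a ratio of 0.41 by its other probe set. These were the 3 of 19 measured mRNA decay factors past 1.5-fold. Zfp36 itself was at 0.38, Zfp36l2 at −0.21 and Zc3h12a, which encodes the nuclease regnase, lowest at −0.23. Tent5a, a noncanonical poly(A) polymerase that acts on messages of secreted proteins, rose at least 2-fold, from 6.67 to 7.60, 7.92 and 6.97.

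Of 23 measured CLK kinases and splicing factors, 1 rose at least 2-fold, 1 rose 1.5- to 2-fold and 21 did not pass 1.5-fold, with 17 above 0 and a median of 0.07. Rsrp1, an arginine- and serine-rich protein of unclear role, had signals of 8.46, 10.61, 9.77 and 8.85, and its 2 other probe sets had ratios of 0.82 and 1.32. Clk1, a kinase that phosphorylates SR proteins, was at 8.47, 9.75, 9.22 and 8.60. Both were highest at 0.5 h. The related kinases Clk4, Clk2 and Clk3 were at 0.51, 0.27 and 0.24, short of 1.5-fold, and the measured SR protein genes of the Srsf series ranged from −0.14 for Srsf4 to 0.34 for Srsf11. Khdc4, a KH domain protein of the spliceosome, rose from 7.16 to 7.81, 8.08 and 7.38.

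Nuclear long noncoding RNAs moved in opposite directions, and their probe sets did not agree. Neat1, the scaffold of paraspeckles, had signals of 6.14, 6.70, 7.48 and 6.72, a rise of at least 2-fold at 1 h, but its other probe set was at 6.35 in the control and 6.17 at 1 h, a ratio of −0.18. Malat1, an abundant RNA of nuclear speckles, fell from 12.65 to 11.97, 11.92 and 12.28 by its brightest probe set. Of its 6 other measured probe sets, the brighter 2 had ratios of −0.75 and −0.86 and the 4 dimmer ones 0.53, 0.86, 0.73 and 0.76, so the mean over all 7 was 0.08. The direction of Malat1 thus depends on the probe set, and that of Neat1 does too. Of 9 measured paraspeckle components, Pspc1, a paraspeckle protein, also rose, from 7.68 to 8.11, 8.31 and 8.11, and 6 did not pass 1.5-fold, with Sfpq at 0.02 and Nono at 0.03. Kcnq1ot1, an imprinted antisense RNA, was at 6.39, 6.10, 7.04 and 6.73, a rise at 1 h, with a ratio of 0.66 by its other probe set. Dleu2 rose from 5.87 to 6.71 at 1 h, and C130075A20Rik, a noncoding gene model, rose at least 2-fold from 5.51 to 6.53, with 5.52 at 0.5 h and 6.30 at 3 h. Snhg genes, hosts of small nucleolar RNAs, had ratios above 0 in 11 of 13 cases with a median of 0.20 and none past 1.5-fold.

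Inflammatory genes rose 1.5- to 2-fold without any past 2-fold. Of 18 measured NF-kB and inflammatory genes, 5 passed 1.5-fold upward, none downward and 13 did not pass, with a median of 0.14. Rel, an NF-kB subunit, was at 5.22 in the control, just under the floor, and at 5.66, 6.06 and 5.44 after LIPUS, at least 1.78-fold higher at 1 h. Ptx3, a secreted pentraxin of innate immunity, was at 8.67, 9.02, 9.49 and 9.67, highest at 3 h. Ptgs2, the inducible prostaglandin synthase, was at 8.99, 10.18, 9.72 and 8.78, and the ratio of its other probe set was 0.66. The neighbouring chemokine genes Ccl2 and Ccl7, which attract monocytes, went from 6.58 to 7.16, 7.16 and 6.51 and from 6.16 to 6.96, 6.79 and 6.55. Ccl2 was no longer above its control signal at 3 h. Nfkbia, the inhibitor that NF-kB induces, was at 0.45, Nfkbiz at 0.42 and the chemokine gene Cxcl1 lowest at −0.33. Il6 and Cxcl2 lay under the floor on both arrays. Of 12 interferon-stimulated genes, Ifih1, a sensor of double-stranded RNA, rose from 7.68 to 7.96, 8.30 and 8.08, and the rest did not pass 1.5-fold.

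Few secreted growth factors changed. Edn1, which encodes the vasoactive peptide endothelin, was the 1 of 20 measured growth factors and cytokines of bone repair past 1.5-fold, with signals of 7.04, 8.45, 7.82 and 7.51, highest at 0.5 h. The median of that list was −0.04, and Tgfb1 was lowest at −0.39, with Vegfa and Bmp4 each at −0.23. Ptgs2 was likewise alone among 9 measured genes of prostaglandin synthesis, breakdown and reception, where Hpgd, which breaks prostaglandins down, was at 0.56 and the receptor gene Ptger4 at 0.34. Of 10 measured niche and osteoclast support factors none passed 1.5-fold. Kitl, the stem cell factor gene, was highest at 0.44, Cxcl12 was at 0.16 and Csf1 was lowest at −0.29. Outside these lists, and named after its values were seen, the growth factor gene Pgf rose from 8.46 to 8.86, 9.11 and 8.43.

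Transcription factors of development appeared among the moderate rises. Snai1, a repressor that drives loss of epithelial traits, read 7.88 on the control array and 8.88 at 1 h, with ratios of 0.12 and 0.06 at 0.5 h and 3 h. Hes1, a repressor downstream of Notch, was at 7.90, 7.89, 8.80 and 7.85, and Dlx2, a distal-less homeobox factor, at 6.28, 6.30, 7.11 and 6.07. These 3 genes, like Junb and Klf10, lay within 0.22 of the control at 0.5 h and 3 h. Gata3, a zinc finger factor, rose from 6.32 to 6.60, 7.16 and 6.89. Hes1 was the 1 of 12 measured Notch pathway genes past 1.5-fold, with the ligand gene Jag1 at 0.48 and Heyl lowest at −0.29.

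Among 17 measured genes of the HOX clusters, which set position along the body axis, 3 passed 1.5-fold upward. Hoxb6 rose at least 2-fold, from 6.04 to 6.84, 7.09 and 6.40. Hoxa5 rose from 6.73 to 6.87, 7.46 and 7.35, but its other probe set had a ratio of −0.04. Hoxc6 rose from 8.24 to 8.63, 8.86 and 8.76, and its 2 other probe sets were at 0.55 and 0.32. The remaining 14 did not pass 1.5-fold, and Hoxd9 was lowest at −0.47.

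Of 17 measured BMP targets and feedback genes, 15 had ratios above 0, with a median of 0.27, but Dlx2 alone passed 1.5-fold. The ID genes, inhibitors of differentiation factors, were at 0.50 for Id3, 0.46 for Id1, 0.44 for Id2 and 0.32 for Id4, and the inhibitory SMAD genes Smad7 and Smad6 at 0.49 and 0.27. Dlx3 and Msx2 were lowest, at −0.37 and −0.34. TGF-beta targets gave 1 gene in each direction among 17, Snai1 upward and Tgfb1i1 downward, with a median of 0.03. Klf10, named above as TGF-beta-inducible, was counted with the immediate-early genes and not here. Among 21 WNT targets and modulators, Fzd5, a WNT receptor, rose from 7.90 to 8.07, 8.62 and 8.29 by its brightest probe set, with 0.05 by the other. Axin2, a direct WNT target, was at −0.26 and Wnt4 lowest at −0.31.

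The circadian clock list was split between rises and falls. Nfil3, a repressor that competes with DBP for the same sites, rose at least 2-fold, from 7.99 to 8.73, 9.13 and 8.38. Arntl, which encodes the activator BMAL1, rose from 6.69 to 6.99, 7.39 and 7.35, although its other, dim probe set had a ratio of 0.07. Dbp, an output factor driven by that activator, fell from 8.25 to 7.95, 7.43 and 7.78, and its other probe set had a ratio of −0.95. The clock repressor genes Cry2, Nr1d1 and Ciart also fell. Cry2 went from 6.70 to 6.28, 5.90 and 6.30, Nr1d1, the REV-ERB alpha gene, from 7.84 to 7.51, 7.17 and 7.51, and Ciart from 6.84 to 6.59, 6.24 and 6.43. Of 18 measured genes, 12 did not pass 1.5-fold, among them Per1 at −0.45, Tef at −0.28, Per2 at 0.06, Clock at 0.20 and Rora at 0.42, and the median was −0.08. The labels do not give the hour of harvest of either culture.

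Metabolic lists held few changes past 1.5-fold. Of 19 measured genes of cholesterol synthesis and uptake, 18 had ratios above 0, with a median of 0.30, the second highest of the lists. Hsd17b7, a 3-ketosteroid reductase of that pathway, was the 1 member past 1.5-fold, with signals of 8.17, 8.36, 8.80 and 8.60 and ratios of 0.27 and 0.39 by its 2 other probe sets. Next came Mvd at 0.44, Pmvk at 0.38, Fdft1 at 0.37 and Insig1, which retains the sterol sensor, at 0.36, while Fdps was lowest at −0.12. Of 14 fatty acid synthesis genes none passed 1.5-fold, with a median of 0.13 and Acly highest at 0.32. Slc5a3, the myo-inositol transporter gene of osmotic stress, rose from 8.90 to 9.22, 9.73 and 10.02, with 0.23 by its other probe set, and Nfat5, the factor known to drive it, was at 0.47. Of 52 oxidative phosphorylation genes, 43 had ratios above 0, with a median of 0.10 and none past 1.5-fold.

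Of 10 measured adipocyte fate genes, Cebpb, an early factor of that programme, rose from 10.36 to 10.62, 10.96 and 10.45, with 0.43 by its other probe set, and the rest did not pass 1.5-fold, with Fabp4 at 0.30 and Pparg at 0.24. Of 5 measured osteoblast genes, Omd, a keratan sulphate proteoglycan of bone, rose from 6.26 to 6.54, 6.85 and 6.77. Sp7, the osteoblast factor osterix, was at −0.08, and Alpl and Ibsp lay under the floor on both arrays. Among 24 collagens and matrix proteins, Fmod, a proteoglycan that shapes collagen fibrils, rose from 5.89 to 6.28, 6.85 and 6.89, with ratios from 0.22 to 0.68 by its 4 other probe sets. Postn and Ogn were at 0.55 and 0.52, Col1a1 at −0.19 and Col5a3 lowest at −0.40. Col8a2, outside that list and named after its values were seen, rose from 6.15 to 6.33, 6.84 and 6.72. It was the 1 of 27 measured Col genes past 1.5-fold. Of 17 matrix proteases and inhibitors none passed 1.5-fold, with Plau highest at 0.45.

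**Figure D3:**
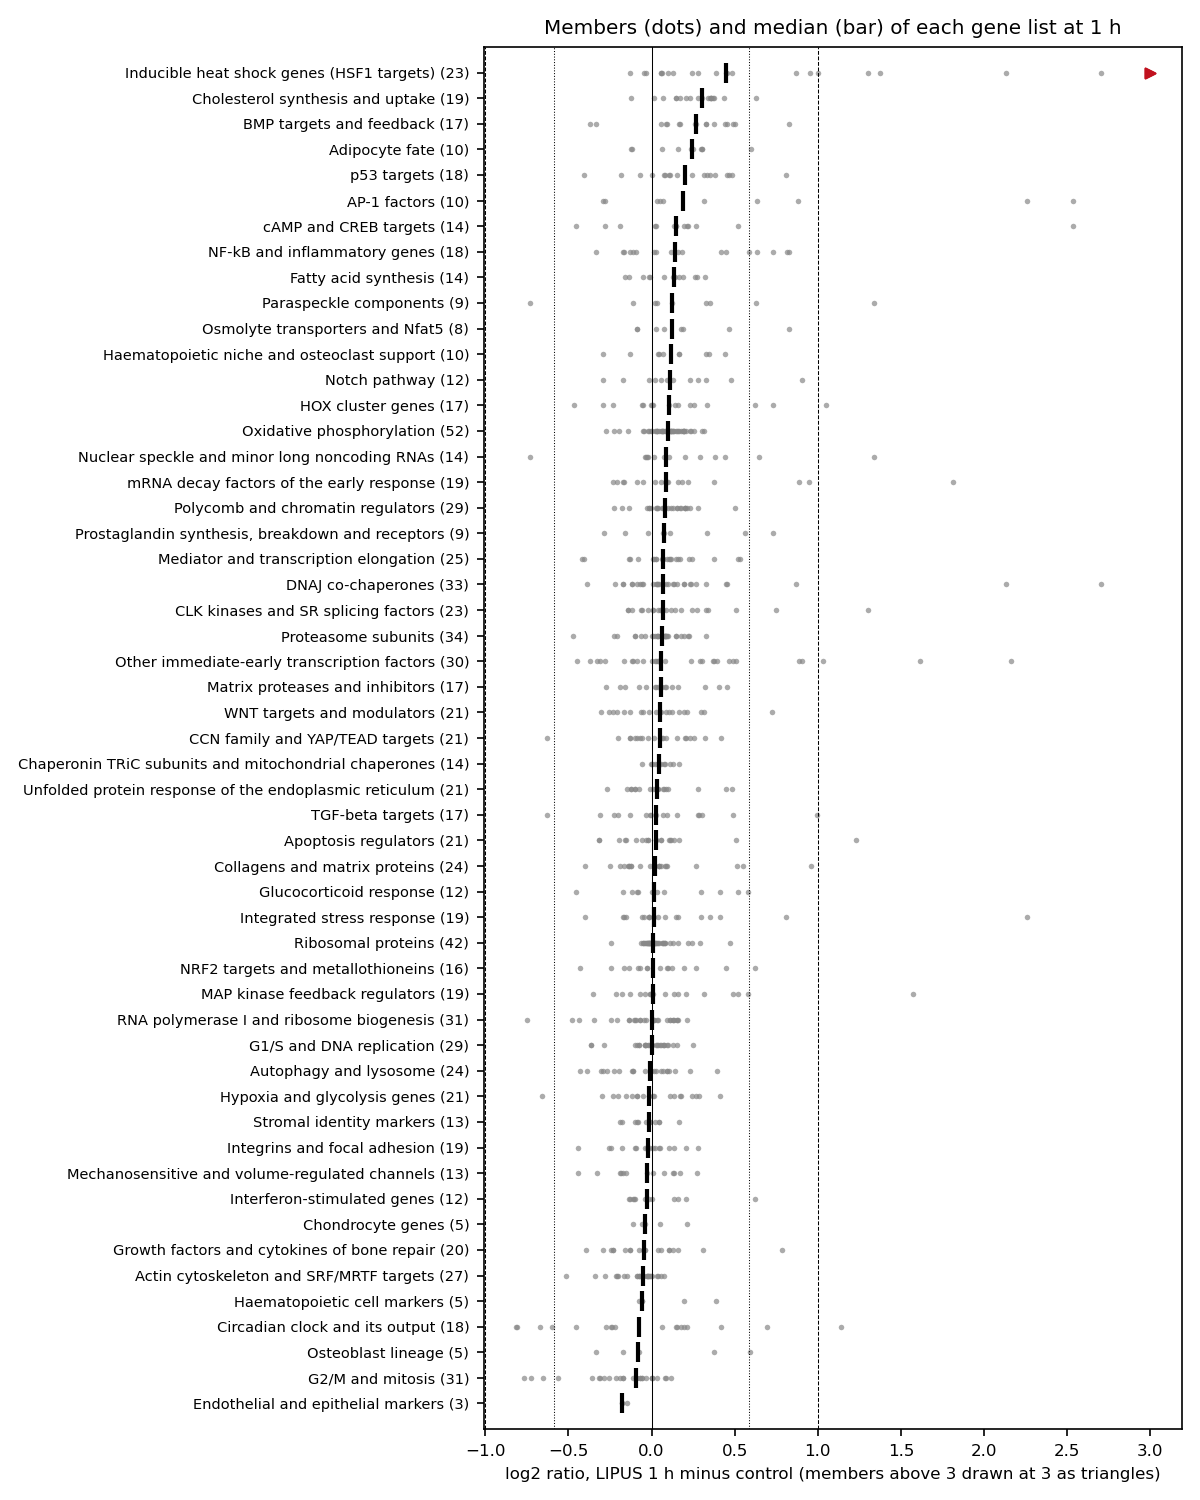
Log2 ratio of LIPUS 1 h minus control (x axis) for each measured member (dots) of 53 gene lists (rows, with the number measured) and the list median (bar), with dotted lines at 1.5-fold and dashed lines at 2-fold. The heat shock list has the highest median, 0.45 and the list of endothelial and epithelial markers the lowest, −0.18 over 3 genes.

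The falls were shallow and none reached 2-fold. The deepest was that of Ggcx, the carboxylase that uses vitamin K to modify clotting and bone matrix proteins, with signals of 6.98 in the control and 6.29, 6.02 and 6.26 after LIPUS. Plp2, a small membrane protein of the endoplasmic reticulum, was among the brightest and fell from 12.92 to 12.79, 11.97 and 12.50. B3galt5, a galactosyltransferase, went from 6.34 to 5.93, 5.42 and 5.89, but its other probe set had a ratio of −0.27. Odf2, a protein of the outer dense fibre and of centriole appendages, went from 9.31 to 9.13, 8.44 and 8.69. Its 3 other probe sets had ratios of −0.56, −0.89 and 0.08. Of the 38 genes that fell, the control was the highest of the 4 arrays for 37 and the 1 h array the lowest for 38. The genes were chosen against that control array, so this order is a description.

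Mitotic genes were among the falls. Of 31 measured genes of G2/M and mitosis, 3 fell 1.5- to 2-fold, 28 did not pass 1.5-fold and 23 had ratios below 0. The list median was −0.10. Over all 11497 measured genes, 0.331% fell and 5180 had ratios below 0. Ccnf, a cyclin with an F-box, went from 9.38 to 8.75, 8.61 and 9.13, and its other probe set had a ratio of −0.45. Nek2, a kinase that splits centrosomes, went from 10.21 to 10.05, 9.48 and 9.68, with −0.73 and −0.01 by its 2 other probe sets. Plk1, a kinase needed for entry into and exit from mitosis, went from 10.49 to 10.25, 9.83 and 10.00. Bub1b, of the spindle checkpoint, was at −0.56, Aurka at −0.36 and Cenpe at −0.32, all short of 1.5-fold, while Cdk1 was at −0.10, Top2a at 0.03 and Ccnb2 highest at 0.11. Kinesin genes, motors of which several serve the spindle, had ratios above 0 in 7 of 27 cases, with a median of −0.10 and none past 1.5-fold. Cenpb, a centromere-binding protein, fell from 9.09 to 8.93, 8.40 and 8.60, but its other probe set had a ratio of 0.33. Of 29 G1/S and DNA replication genes none passed 1.5-fold, and their median was 0.00.

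Several falls belonged to enzymes of protein, DNA and sugar metabolism. Pkm, the pyruvate kinase gene, fell from 12.81 to 12.58, 12.15 and 12.40, as the 1 of 21 measured hypoxia and glycolysis genes past 1.5-fold, with a list median of −0.01 and Ldha at 0.13. P4hb, a disulphide isomerase that is also a subunit of the collagen prolyl hydroxylase, fell from 12.60 to 12.39, 11.96 and 12.25. Cnpy3, a chaperone of toll-like receptors, fell from 8.02 to 7.67, 7.32 and 7.34. Polr1b, the second largest subunit of RNA polymerase I, fell from 7.24 to 6.60, 6.48 and 6.80, alone among 31 measured genes of that polymerase and of ribosome biogenesis. Nop16 and Bop1 of that list were at −0.48 and −0.44, and the list median was 0.00. Parp1, which marks broken DNA with ADP-ribose, fell from 9.43 to 9.16, 8.79 and 8.87 by its brightest probe set, with 0.04 and −0.52 by the 2 others. Ribosomal protein genes held no change past 1.5-fold among 42, with a median of 0.01.

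Other falls touched the cell surface and the cytoskeleton. Dysf, a membrane repair protein, went from 9.20 to 8.90, 8.46 and 8.54, and Slc29a1, a nucleoside transporter, from 10.84 to 10.70, 10.14 and 10.24. Ajuba, an LIM protein of adherens junctions that acts on the Hippo pathway, went from 10.95 to 10.38, 10.32 and 10.85. It was the 1 of 21 measured CCN and YAP/TEAD genes past 1.5-fold, with Ccn1 at 0.05, Ccn2 at −0.13 and a median of 0.05. Tgfb1i1, an LIM protein of focal adhesions, went from 11.20 to 11.08, 10.57 and 10.74. Zyx, another focal adhesion LIM protein, was lowest of the actin cytoskeleton list at −0.52. Of the 27 measured genes of that list, 22 had ratios below 0, with a median of −0.05, and none passed 1.5-fold. Tln1, which links integrins to actin, was lowest of 19 integrin and focal adhesion genes at −0.44, and none of those passed 1.5-fold. The mechanosensitive channel genes Piezo1 and Piezo2 were at 0.01 and −0.33, and Kcnk2 was lowest of its 13-gene list at −0.44.

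The remaining named falls were single genes of varied function. Acsbg1, an acyl-CoA synthetase, went from 6.14 to 5.76, 5.40 and 5.53. Tff1, a secreted trefoil peptide, went from 9.39 to 9.08, 8.70 and 9.07, and Erc1, a scaffold of vesicle docking, from 8.48 to 8.25, 7.80 and 7.83, with −0.09 and −0.11 by its 2 other probe sets. Chrna4, a nicotinic receptor subunit, went from 6.34 to 6.50, 5.69 and 6.21, and was the 1 gene of the 38 whose control array was not the highest. Dync1li1, a light intermediate chain of dynein, was at −0.65 and Ldhd, a D-lactate dehydrogenase, at −0.64. Ttll10 and Sema5b were at or under the floor at 1 h and so were at least 1.53-fold and at least 1.51-fold lower. The 8 further falls, named after their values were seen, were Tmem43, Tnfrsf23, Gas7, Dvl3, Sct, Syk, Exoc8 and Zbtb8a, with ratios between −0.62 and −0.59. Other probe sets had ratios of −0.49 and −0.08 for Syk, −0.22 for Exoc8 and −0.10 for Gas7.

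**Figure D4:**
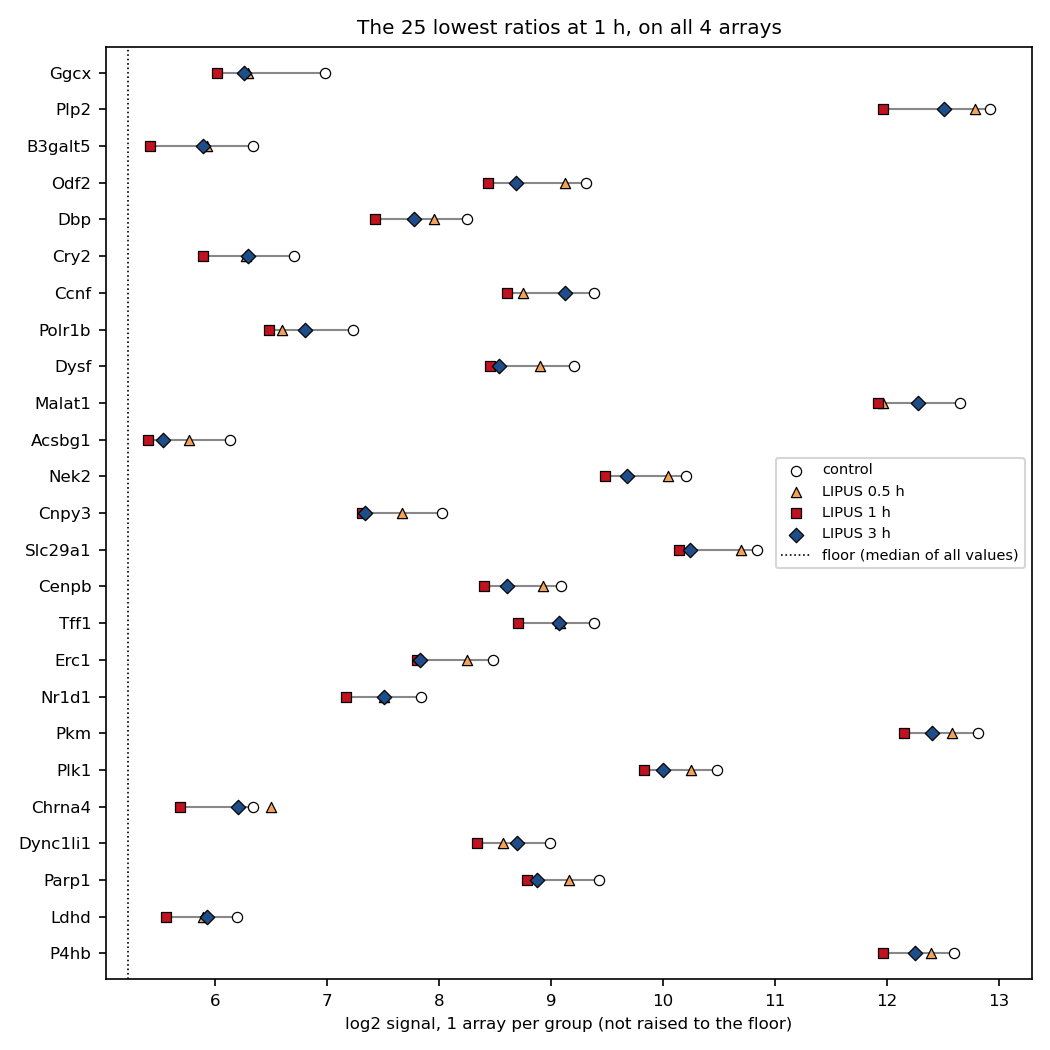
Log2 signal on each of the 4 arrays (x axis) for the 25 genes with the lowest ratios at 1 h and both arrays above the floor (rows), with a line joining control and 1 h. The control is the highest of the 4 arrays for each gene shown except Chrna4, and the 1 h array is the lowest for each.

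Among genes outside every list there were 3 of the 2-fold rises, 56 of the smaller rises and 26 of the falls. The 3 at least 2-fold higher were Tent5a, C130075A20Rik and Krtap1-5, a keratin-associated protein gene of hair with signals of 6.21, 7.12, 7.49 and 7.39. Smaller rises named by rank were Phxr4, a noncoding gene, from 5.63 to 5.34, 6.61 and 6.39, Palm2 from 7.05 to 7.11, 7.92 and 7.70, Purg from 6.34 to 7.15, 7.20 and 6.77, and Banp from 7.21 to 7.41, 8.06 and 8.09. Their courses differed: Phxr4 was below the control at 0.5 h, and Banp was as high at 3 h as at 1 h. Thap2 rose from 8.45 to 8.84, 9.30 and 8.95, Fgd3 from 6.23 to 6.62, 7.05 and 6.59 and Fbxl14 from 8.63 to 9.03, 9.39 and 8.84. The other probe set of Palm2 had a ratio of 0, that of Fgd3 one of 0.02, that of Purg 0.52 and that of Thap2 0.47. Alcam, Depdc7 and Spata5l1 were under the floor in the control and at least 1.75-fold, 1.65-fold and 1.53-fold higher.

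Of the 42 smaller rises that neither rank nor a list named, a few are given here as chosen after their values were seen. Pdk4, a kinase that restrains pyruvate oxidation, rose from 10.04 to 10.53, 10.76 and 10.58. Txnip, which limits glucose uptake, and Arrdc3, a related arrestin, rose from 8.53 to 9.16 and from 7.49 to 8.16 at 1 h, although the other probe set of Txnip had a ratio of −0.03. Irs1, the docking protein of the insulin receptor, rose from 10.17 to 10.77. Gadd45g, a stress sensor, rose from 9.98 to 10.66, and Tiparp, an ADP-ribosyl transferase, from 7.92 to 8.58, with 0.53 and −0.09 by its 2 other probe sets. Rbm25 and Luc7l, both splicing factors, rose from 10.11 to 10.71 and from 8.44 to 9.08. Of the 4 other probe sets of Rbm25, 3 had ratios of 0.72, 0.53 and 0.62, and the fourth, close to the floor, was at 0.01, while the 3 of Luc7l were at 0.31, 0.38 and 0.25, short of 1.5-fold. Rspo3, which amplifies WNT signals, rose from 8.08 to 8.67 and stood at 8.89 at 3 h.

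Seen across the 4 arrays, the changed genes had several courses. Of the 22 genes at least 2-fold higher at 1 h, 18 were past 1.5-fold at 0.5 h and 6 at 3 h. Of the 87 smaller rises, 17 were past 1.5-fold at 0.5 h and 17 at 3 h, with median ratios of 0.28, 0.70 and 0.38 at 0.5, 1 and 3 h. Of the 38 falls, 4 were past 1.5-fold at 0.5 h and 7 at 3 h, with medians of −0.30, −0.66 and −0.41. The 1 h array was the highest of the 4 for 72 of the 87 smaller rises. All of these ratios share the control array, and the genes were chosen at 1 h, so the medians at the other times are a description.

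Other probe sets of the same genes, which share the RNA and are no replicates, were used as a check on size. Another measured probe set existed for 8 of the 22 genes at least 2-fold higher, and the brighter such probe set was past 1.5-fold upward for 7 of them and below 0 for Neat1. For the smaller rises, 40 of 87 genes had one, with 36 above 0 and 10 past 1.5-fold, and a median of 0.34. For the falls, 12 of 38 had one, with 10 below 0 and 3 past 1.5-fold downward, and a median of −0.36. Over all measured genes 53.6% of such probe sets were above 0, and 0.869% and 0.661% were past 1.5-fold upward and downward. The direction was thus shared by most, whereas the size of a 1.5- to 2-fold change was repeated for 25% of the genes with a second probe set.

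**Figure D5:**
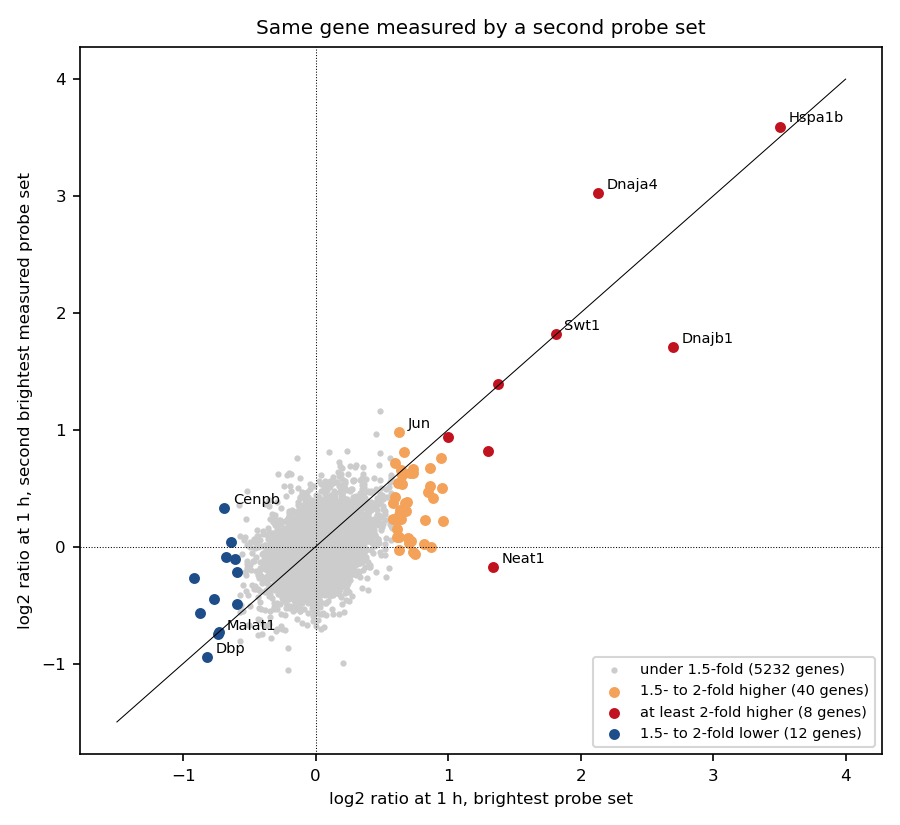
Log2 ratio at 1 h by a gene's brightest probe set (x axis) against that by its second brightest measured probe set (y axis), 1 dot per gene, with the line of equal values. Genes 1.5- to 2-fold higher lie mostly below the line, with a median of 0.34 by the second probe set, while 7 of the 8 genes at least 2-fold higher remain past 1.5-fold.

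Genes past 1.5-fold had shorter median spans than the rest. The median genomic span was 9.00 kb for the 22 genes at least 2-fold higher, 15.4 kb for the smaller rises and 17.0 kb for the falls, against 22.6 kb over all measured genes, as a description of genes chosen by their ratios. Promoter GC content was 61% in the median for the 2-fold genes and for all measured genes alike. Over all 11497 measured genes, 0.191% rose at least 2-fold, 0.757% rose 1.5- to 2-fold and 0.331% fell. By gene type, 306 long noncoding RNA genes held 2 of the 2-fold rises, 5 of the smaller rises and 1 fall. Among symbol families, 156 of 260 Zfp genes (60%) had ratios above 0, against 54.7% of all measured genes, with 2 past 1.5-fold, and 201 Slc genes held 3 smaller rises and 1 fall. Within 100 kb of each other lay 9 pairs of changed genes. In Hspa1a with Hspa1b, Ccl2 with Ccl7, Btg2 with Fmod, Omd with Tes3-ps and Swt1 with Trmt1l, both members rose. Swt1 and Trmt1l lie 0.045 kb apart, with ratios of 1.82 and 0.71, although the other probe set of Trmt1l was at 0.03. In Malat1 with Neat1, Acsbg1 with Dnaja4, Erc1 with Fbxl14 and Nek2 with Slc30a1, one member rose and the other fell. The directions in all 9 pairs are by the brightest probe sets. Those of Malat1 and Neat1 depend on the probe set, and Erc1 was at −0.09 and −0.11 by its 2 others. How many measured genes lie this close in all was not counted.

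The markers of the cells themselves did not change past 1.5-fold. Of 15 stromal identity markers 13 were measured, with Vim at 14.46 in the control, Col1a1 at 13.88 and Cxcl12 at 13.36, and ratios between −0.19 for Col1a1 and 0.16 for Cxcl12. Thy1 lay under the floor on both arrays. Of 14 markers of blood cells, Ptprc, Cd68, Adgre1, Itgam, Cd79a, Hba-a1 and Kit were under the floor on both arrays. Of the 5 measured, Lyz2, at 6.84 and 7.22, was the highest by ratio. Itga2b, the lowest by ratio, had signals of 7.31 and 7.23, above Lyz2 in the control. Of 9 endothelial and epithelial markers, Pecam1, Cdh5, Tek, Emcn, Krt18 and Cdh1 were under the floor on both arrays. The 3 measured included Krt8, at 6.02 in the control and 5.84 at 1 h, and Kdr, at 5.65 and 5.51. In lysates of many cells, fewer cells with a transcript and less transcript per cell cannot be told apart.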

How the data were processed

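The authors deposited 1 log2 signal per probe set and array for 45101 probe sets, on a common scale. The log base was read from the range of values, with the summarisation method not given in the sources used here. Per the labels' protocols, 500 ng of RNA with an integrity number above 9.5 was copied from its poly-A tail, so signals weigh the 3' end. GEO's platform annotation gave 34958 probe sets 1 symbol, 932 several and did not list 9211. Symbols of 34754 were updated by gene number. The probe set brightest over the 4 arrays stood for each gene, and 408 ratios against a signal at the floor are bounds. Members, 53 gene lists and the naming rule were chosen with earlier results of these data known. The rule names genes past 2-fold, the 25 highest and 25 lowest at 1.5- to 2-fold, up to 10 bounds, list members past 1.5-fold and each list's extremes. Floors, scaling, probe set choice and reference were varied. Gene spans, neighbours and signal levels were added after seeing the data. Python 3.11.15, numpy 2.4.6, pandas 2.3.3, matplotlib 3.10.9, R 4.3.3 and limma 3.58.1 (cyclic loess scaling) were used. Quantile scaling used numpy and scipy.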

Additional observations from a re-analysis of the deposited data

Results flagged for a closer look

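Signal outside the genes counted above drew attention because no single gene symbol could be given to it. Of 2663 measured probe sets without a single gene symbol, 15 were at least 2-fold higher at 1 h and 0 at least 2-fold lower. At 1.5- to 2-fold, 73 were higher and 6 lower. In the same order, the 11497 measured genes gave 22 (0.191%), 0 (0%), 87 (0.757%) and 38 (0.331%). Those are genes by their brightest probe set, so the counts differ in unit. The highest ratio among the probe sets without a single symbol was 1.41 and the lowest −0.87.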

How the results depend on the processing

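The count of genes at least 2-fold higher, 22, was 13 when the floor stood at the 75th percentile, 6 by the second brightest probe set and 9 relative to the average of the other 3 arrays. The count at 1.5- to 2-fold higher, 87, was 46, 40 and 30 in the same order. These settings measured 6927, 5293 and 11462 genes in that order, against 11497, so part of each shift is the number of genes. The count at 1.5- to 2-fold lower, 38, was 62 of 15407 genes under a 25th-percentile floor and 19 of 6927 under the 75th. It was 81 of 18193 under none, 34 of 5293 by the second brightest probe set and 4 of 11462 against the other 3 arrays. No gene was at least 2-fold lower, but 1 was under a 25th-percentile floor or none (H1f4) and 1 by the second brightest probe set (Arhgap1), both named after their values were seen. Other scalings kept these counts within 1.5 times, with 19 to 21 genes at least 2-fold higher, and moved the split toward falls: 75 higher and 50 lower at 1.5- to 2-fold after median centring, 71 and 49 after quantile and 75 and 42 after cyclic loess scaling. By the second brightest probe set, 1 of the genes at least 2-fold higher, 3 of the smaller rises and 2 of the falls changed sign: Neat1 at −0.18, Hoxa5 at −0.043, Sbno2 at −0.061, Txnip at −0.027, Cenpb at 0.33 and Parp1 at 0.042, and by the mean over probe sets Malat1 at 0.077. The cause was not tested. Of list medians under the alternatives 514 stayed close and 12 moved, among them heat shock genes at 0.16 against the other 3 arrays. No paired analysis was possible because each group has 1 array. Spread between cultures was not measured, and genes near the floor have understated ratios.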
